A study of Ascaris suum with 10 samples.

Results

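In the parasitic roundworm Ascaris suum, 109 of 15446 genes had RNA at like levels in ovary and early embryo and low levels in the other adult tissues measured. A gene belonged to the group when its ovary and embryo values were both 20 RPKM or more and within 2-fold of each other, and when the lower of the 2 was at least 5 times the value in each of testis, intestine, muscle, female carcass and male carcass. RPKM, the unit the authors name, scales a gene's reads to the length of its model and to the total mapped in the library. The genes were thus selected on the values of these 7 columns, which are given as a description with no test. The larva column was not used in the choice, and the main question here is whether larvae kept or lost these transcripts.

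The series asked in which stages and tissues of a North American wild population of the worm each gene is expressed. Polyadenylated RNA was sequenced from second-stage larvae of day 7, embryos incubated for 24 hr (1 cell), 46 hr (1 to 2 cells) and 64 hr (2 to 4 cells), the germinal zones of adult ovary and testis, adult intestine, adult muscle with hypodermis, and female and male carcass, both listed as muscle, hypodermis, pharynx and neurons. None of the samples carried a treatment. The 3 embryo libraries appear as a single embryo column, given here as the authors' value, and every other column stands for 1 library, so there is no replicate error and no difference below was tested. A difference compares these libraries only, and in such bulk RNA fewer cells of a type and less RNA per cell cannot be told apart. Column sums ran from 564412 RPKM in larva to 821149 RPKM in female carcass, and the read depth is unknown. The identifiers come without gene names, so the genes have no known function here, and neither pathway lists nor markers of the labelled tissues could be looked up.

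As background, a growing oocyte is loaded with messenger RNA that the fertilised egg uses before and while its own genes are switched on. A transcript found alike in ovary and in the cleaving embryo may be carried over from the oocyte, made anew in the embryo, or both, and a level alone does not separate these. In Ascaris, cells that become soma discard part of the germline genome during the early cleavages, while the germline keeps it whole. The larva is a small animal made mostly of somatic cells with a few germline precursors.

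The group is the low end of a continuous range. Ovary and embryo both reached 20 RPKM for 3650 genes, and 2470 of these were within 2-fold. Among the 2470, the highest of the 5 low adult columns stood at a median of 73.9% of the lower of ovary and embryo, and 963 genes were above 100%. Low testis was met by 689 of the 2470 genes, low intestine by 765, low muscle by 846, low female carcass by 422 and low male carcass by 641. When each condition was lifted alone, those on testis and female carcass added the most genes. Without the testis condition 245 genes would qualify, and without the female carcass condition 214. The count was 123 without intestine, 116 without muscle and 112 without male carcass.

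**Figure D1:**
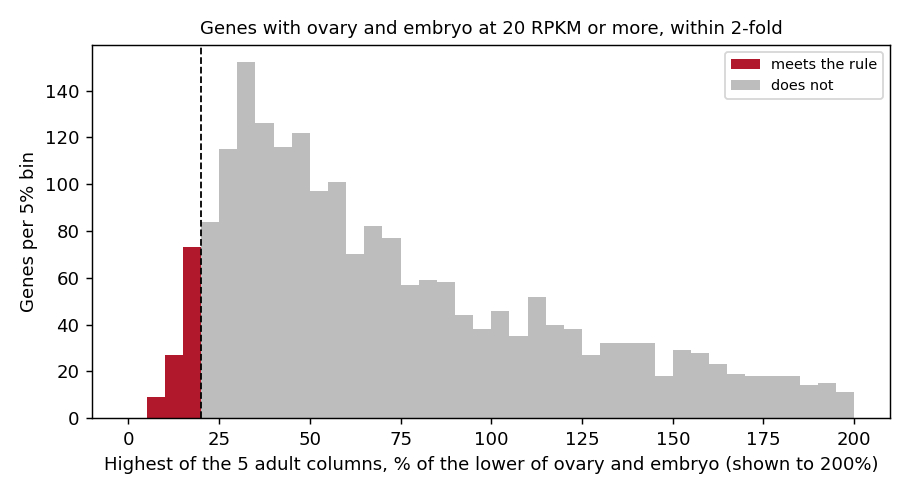
Number of genes per 5% bin (vertical axis) by the highest of the 5 adult columns as a percentage of the lower of ovary and embryo (horizontal axis, shown to 200%), for the 2470 genes with ovary and embryo at 20 RPKM or more and within 2-fold. The 109 genes of the group (red) lie left of the dashed line at 20%, where there is no gap: the bin below the line holds 73 genes and the bin above it 84.

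Just inside the limit of 20% stood ASG14399, with 22.5 RPKM in ovary against 4.5 RPKM in intestine, exactly 20% of it, and ASG05499, with 58.2 RPKM in ovary against 11.6 RPKM in female carcass, 19.9% of it. Just outside it stood ASG09826 at 20.04% and ASG04104 at 20.06%, both through female carcass. At the 2-fold limit, the last genes inside had ratios of 1.97 and 1.95, and the next genes outside 2.002 and 2.04. At the limit of 20 RPKM, the lower of ovary and embryo was 20.5 and 20.9 RPKM for the last genes inside, and 19.8 and 18.5 RPKM for the next outside.

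Membership depended strongly on how the columns are scaled. With each column brought to an equal sum, 246 genes met the rule, and 108 of the 109 were among them. With scaling by the upper quartile only 3 genes met it, and with scaling by the median of ratios only 1, all of them from the 109. The median of ratios multiplied embryo by 0.41 and ovary by 0.64 but testis by 1.86 and muscle by 1.81. That these genes are at least 5 times higher in ovary and embryo than in the 5 low adult columns therefore depends on scaling. It holds for the values as deposited and, for 108 of the 109, with equal sums. Under the other 2 scalings it holds for almost none of the genes. Larva is not among those columns.

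Most of the genes were of moderate abundance. Embryo values ran from 21.2 to 3721.8 RPKM with a median of 44.4, and ovary values from 20.5 to 2040.2 RPKM with a median of 39.1. Both were under 100 RPKM for 89 of the 109 genes. The spread among them was therefore wide, with a long upper tail that a few genes made up. Both values were 500 RPKM or more for 3 genes.

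The most abundant was ASG10498, at 86.4 RPKM in larva, 3721.8 in embryo, 2040.2 in ovary, 376 in testis, 2.0 in intestine, 41.9 in muscle, 151.1 in female carcass and 36.1 in male carcass. ASG07812 was next, at 339.2 RPKM in larva, 733.5 in embryo, 1173.2 in ovary, 124.1 in testis, 11.4 in intestine, 9.5 in muscle, 111.5 in female carcass and 28.9 in male carcass. ASG05752, named after its values were seen, completed the 3, at 43.9 RPKM in larva, 717.3 in embryo and 1090.8 in ovary. All 3 had testis as their highest low adult column, and intestine stood at 1.0 to 11.4 RPKM.

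Together the 109 genes held a small part of each column's summed RPKM. They made up 0.795% in larva, 2.08% in embryo, 1.84% in ovary, 0.157% in testis, 0.134% in female carcass, 0.0645% in male carcass, 0.0591% in intestine and 0.0497% in muscle. The 5 most abundant genes held 50.5% of the group's sum in embryo and 46.9% in ovary, but 13.0% in larva. Without them the group made up 0.692% of larva, 1.03% of embryo and 0.979% of ovary, so the larva share was lower than the embryo share either way.

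**Figure D2:**
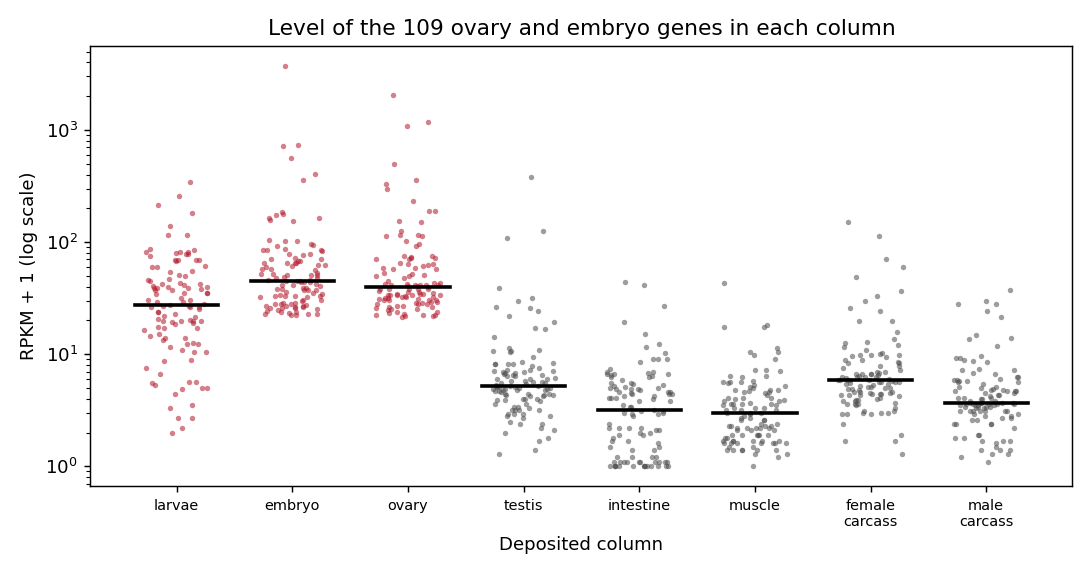
RPKM + 1 on a log scale (vertical axis) of the 109 genes in each deposited column (horizontal axis), with 1 point per gene and a black line at the median. Larva, embryo and ovary are in red and the other adult columns in grey. Larva points spread from near the embryo levels down to those of the low adult columns, with a median of 26.6 RPKM.

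Within the 2-fold limit neither ovary nor embryo led throughout. Embryo was above ovary for 61 of the 109 genes and below it for 47, a split with 56.0% above, while embryo was above ovary for 62.0% of the other 2361 genes that met the ovary and embryo conditions. Because the rule used both columns, nothing is read from this split. The 2 values were within 1.5-fold for 82 genes. Across the 109 genes Spearman's rho between embryo and ovary was 0.83, over a range that the rule limits, and genes are not independent replicates.

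The genes nearest the 2-fold limit on the embryo side were ASG06599, with 50.0 RPKM in embryo and 25.4 in ovary, and ASG07609, with 100.6 RPKM in embryo and 51.6 in ovary. On the ovary side they were ASG12119, with 59.3 RPKM in embryo and 112.3 in ovary, and ASG14618, with 178.1 RPKM in embryo and 330.6 in ovary. The larva values of these 4 genes were 22.0, 15.5, 3.4 and 9.9 RPKM, below both ovary and embryo in each. Their intestine values did not exceed 0.2 RPKM.

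The low adult columns were not equally low. As a percentage of the lower of ovary and embryo, the median level was 13.1% in female carcass, 12.2% in testis, 7.12% in male carcass, 5.24% in intestine and 3.98% in muscle. The highest of the 5 was female carcass for 44 genes, testis for 43, intestine for 12, male carcass for 6 and muscle for 4. For 73 genes it was over 15% and for 9 it was 10% or less, so the group sits close under its own limit of 20%. The 2 highest testis percentages were 19.8% for ASG12084, with 153.4 RPKM in embryo and 154.2 in ovary against 30.4 in testis, and 19.7% for ASG02472, with 36.8 RPKM in embryo and 25.9 in ovary against 5.1 in testis.

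Of the 5 columns, intestine was the most often near 0. It was under 1 RPKM for 38 genes, of which 14 were listed at 0, while testis and female carcass were under 1 RPKM for 4 genes each. Muscle was under 1 RPKM for 33 genes and male carcass for 16. A wider set is the 1371 genes with 20 RPKM or more in embryo and at least 5 times each of the 5 columns there. The 109 are part of it. Intestine was under 1 RPKM for 58.1% of its 484 genes lower in larva by 4-fold or more and 23.9% of its other 887. For muscle it was 49.0% and 26.2%. The group's 34.9% for intestine and 30.3% for muscle lie between, so these counts only describe the group. Female carcass was above male carcass for 88 of the 109 genes, and it was so for 59.6% of the other 2361 ovary and embryo genes. The rule used both carcasses, so this too is a description. Across the 109 genes, Spearman's rho with ovary was 0.79 for female carcass, 0.67 for testis, 0.52 for male carcass, 0.47 for muscle and 0.24 for intestine. In the other 2361 ovary and embryo genes it was 0.65, 0.56, 0.55, 0.55 and 0.51 in the same order. The rule caps all 5 columns relative to ovary, so nothing is read from this order.

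Larvae lost some of these transcripts, kept others and had more of a few. A larva value was counted as lower when its log2(RPKM + 1) difference from embryo was -2 or less, which is 4-fold. By that rule 27 of the 109 genes (24.8%) were lower in larva, against a background of 20.3% of the 6002 genes with 20 RPKM or more in embryo. A further 30 genes were lower by 2 to 4-fold (27.5%, background 24.7%), 40 were within 2-fold (36.7%, background 48.5%) and 12 were higher by 2-fold or more (11.01%, background 6.60%). The share lower by 4-fold or more was thus near that of embryo transcripts at large. It was below the 35.3% of the 1371 genes with 20 RPKM or more in embryo and at least 5 times each of the same 5 adult columns there, a set that includes the 109 and had a median larva difference of -1.48 (log2). The share not lower by 4-fold or more, which includes the genes lower by 2 to 4-fold, was 75.2%, against a background of 79.7%.

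The median difference between larva and embryo was -1.05 (log2), with quartiles of -1.91 and -0.11 and a range from -5.41 to 1.96. All genes at 20 RPKM or more in embryo had a median of -0.86, so the group's median lay 0.19 lower. Scaling by the upper quartile moved the median of all 15446 genes by 0.28 and scaling by the median of ratios by 0.35, and the group's own median was then -0.59 and -0.47. With the 109 genes held fixed, it lay the same 0.19 below that of the embryo genes under both. The order turned when the group was chosen anew: the median was -0.60 for the 246 genes that met the rule with equal sums, against -0.81 for the embryo genes on that scale, and -0.77 for the 394 genes at a factor of 3, against -0.86. Choosing genes by a high embryo value tilts the difference towards lower larva values in both sets. The female and male carcass libraries share their listed tissues but differ in sex. Their spread thus includes any sex difference and is not replicate error. Of 3697 genes reaching 20 RPKM in a carcass, 95% differed by no more than 3.36 (log2). Of the 109 larva differences, 14 were beyond that range, all 14 of them lower in larva. That count has no share over the embryo genes beside it, so nothing about the group is read from it.

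**Figure D3:**
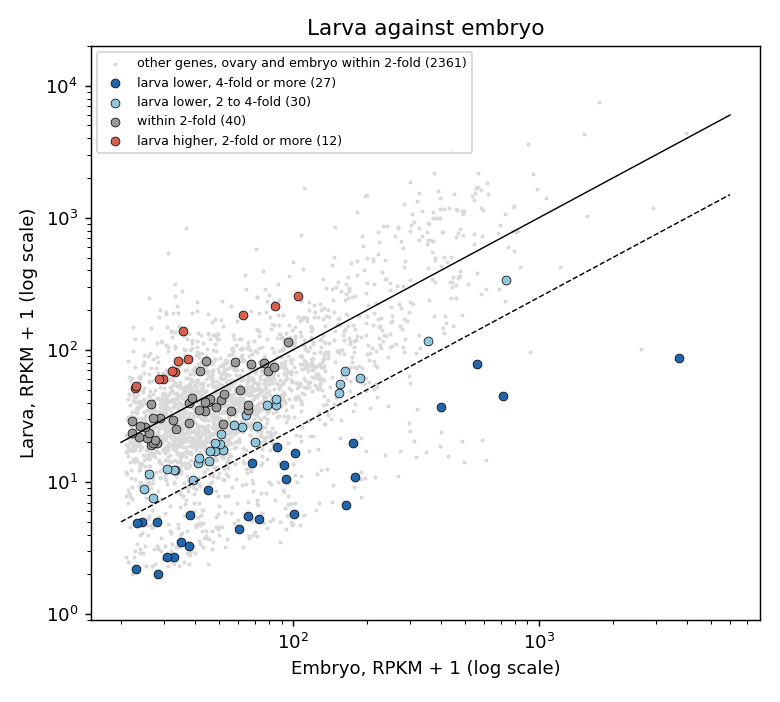
Larva (vertical axis) against embryo (horizontal axis), both as RPKM + 1 on log scales, for the 109 genes (coloured by how larva differed from embryo) and for the other 2361 genes with ovary and embryo within 2-fold (light grey). The solid line marks equal values and the dashed line a 4-fold lower larva value, below which 27 of the 109 genes lie.

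No gene of the group was listed at 0 in larva. Every one of the 109 was at 1.0 RPKM or more in larva, with a median of 26.6 and a highest value of 339.2 RPKM. Larva was under 5 RPKM for 14 genes, from 5 to under 20 RPKM for 29, and 20 RPKM or more for 66 (60.6%, background 60.1% of the embryo genes). Larva was below both ovary and embryo for 74 genes, between them for 14 and above both for 21. Apart from the share at 20 RPKM, these counts have no count over a wider gene set beside them, and only describe the group.

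The 2 genes with the largest loss were ASG10498, described above, whose larva value of 86.4 RPKM was 2.32% of its 3721.8 RPKM in embryo (log2 difference -5.41), and ASG11413. ASG11413 had 5.7 RPKM in larva, 163.6 in embryo, 115.5 in ovary, 9.6 in testis, 0.1 in intestine, 1.6 in muscle, 18.6 in female carcass and 4.1 in male carcass, a log2 difference of -4.62. In both, larva was lower than testis and female carcass.

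The 2 genes with the largest gain stood above ovary as well. ASG02015 had 138.7 RPKM in larva, 34.8 in embryo, 31.5 in ovary, 2.2 in testis, 0.4 in intestine, 1.3 in muscle, 5.8 in female carcass and 4.9 in male carcass, a log2 difference of 1.96. ASG10465 had 182.4 RPKM in larva, 61.8 in embryo, 112.9 in ovary, 5.5 in testis, 9.2 in intestine, 3.1 in muscle, 5.0 in female carcass and 3.7 in male carcass, a log2 difference of 1.55. Both were thus high in ovary, embryo and larva and low in all 5 other adult columns.

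Against the low adult columns, larva was above every one of the 5 for 93 genes (85.3%), where the background was 56.0% of the embryo genes and 79.6% of the 1371 genes that are low in these columns relative to embryo. It was at or below the highest of them for 16, all 16 among the 27 genes lower in larva by 4-fold or more. It was at least 5 times each of the 5 for 46 genes (42.2%), against a background of 8.43% of the embryo genes and 5.51% of the other ovary and embryo genes. The rule itself makes those 5 columns low, which raises this share by construction. Of the 1371 genes low in the same columns, 24.7% met the larva condition. The 46 genes became 60 with equal sums, 17 with the upper quartile and 9 with the median of ratios.

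Genes with a neighbouring pattern were set beside the group by the same limits. In the group, 24.8% were lower in larva by 4-fold or more and 11.01% were higher by 2-fold or more, with a median difference of -1.05. Where embryo was over 2 times ovary (1097 genes), 38.8% were lower and 1.55% higher, with a median of -1.61. Where ovary was over 2 times embryo (233 genes), 13.7% were lower and 39.1% higher, with a median of 0.10. The median embryo value was 11.5 RPKM in these 233 genes, against 44.4 RPKM in the group, and the added 1 RPKM understates changes of low genes. The group lay between these sets. That order is partly built in, since all 3 differences are taken from the embryo value by which the sets were parted.

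The 136 genes that met every condition but low testis had a wider division in larva. There 47.1% were lower by 4-fold or more, 10.3% by 2 to 4-fold, 38.2% were within 2-fold and 4.41% were higher. The medians in larva, embryo and ovary were 26.6, 44.4 and 39.1 RPKM in the group, against 18.3, 45.1 and 40.2 RPKM in the 136 genes, and the testis median was 4.2 RPKM in the group against 23.3 RPKM in the 136 genes. The group thus had fewer of its genes lower in larva by 4-fold or more than this set did, a difference that was not tested. Of all other 2361 ovary and embryo genes, 11.6% were lower by 4-fold or more and 61.0% were within 2-fold.

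**Figure D4:**
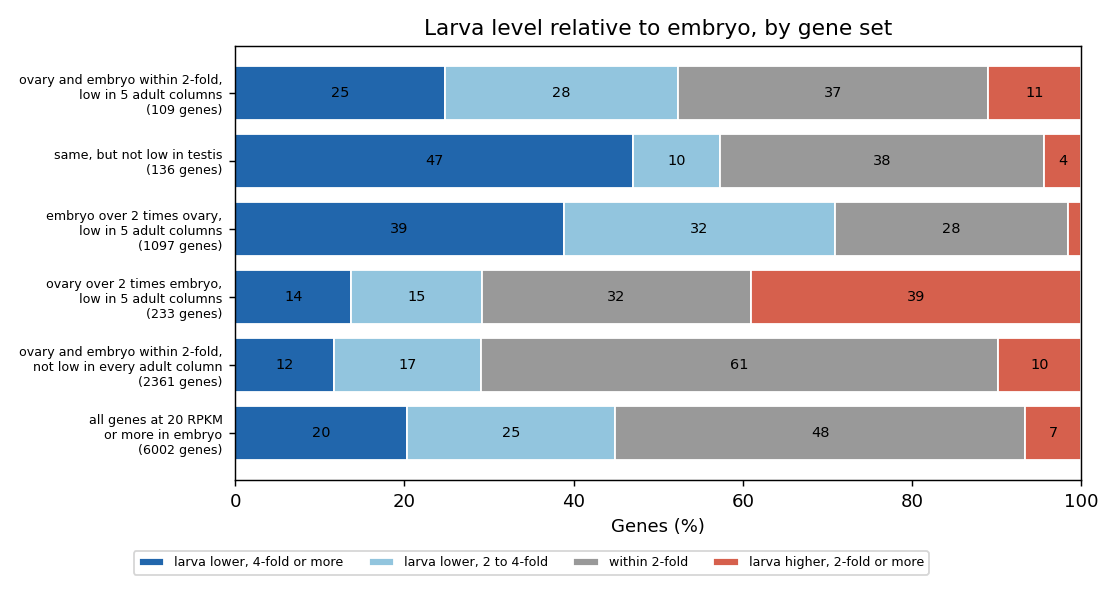
Percentage of genes (horizontal axis) in 4 classes of larva level relative to embryo, for the 109 genes (top row) and 5 other sets of genes (rows, with the number of genes in brackets). The group has 24.8% in the class lower by 4-fold or more, below the 47.1% of genes that are not low in testis and above the 11.6% of ovary and embryo genes that are not low in every adult column.

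Most genes lower in larva by 4-fold or more were also low in intestine. Of the 27 genes lower by 4-fold or more, 21 were under 1 RPKM in intestine, and their median there was 0.2 RPKM, or 0.139% of the lower of ovary and embryo. Of the 40 genes within 2-fold, 3 were under 1 RPKM in intestine, and the median was 3.4 RPKM, or 10.0%. The other classes lay between in this count, with 10 of the 30 genes lower by 2 to 4-fold and 4 of the 12 genes higher by 2-fold or more under 1 RPKM there, so intestine did not follow larva in order across all 4 classes. Put the other way, 21 of the 38 genes under 1 RPKM in intestine were lower in larva by 4-fold or more, against 6 of the 71 genes reaching 1 RPKM there. Muscle and male carcass stood apart less, with medians of 2.19% and 3.55% for the 27 genes and 6.76% and 8.31% for the 40. Testis (12.6% and 14.1%) and female carcass (13.9% and 12.8%) stood close together in both classes.

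In the group, 77.8% of the genes lower in larva by 4-fold or more were under 1 RPKM in intestine, against 20.7% of its other genes. The other ovary and embryo genes showed the same direction. Of their 275 genes lower in larva, 53.8% were under 1 RPKM in intestine, against 3.74% of the remaining 2086. Those genes were not low in every adult column, which lowers such shares. Among the 1371 genes low in the 5 columns relative to embryo, it was 58.1% of 484 against 23.9% of 887. Among all 6002 embryo genes, it was 51.6% of 1216 against 8.98% of 4786. Over the 109 genes the larva difference had a Spearman's rho of 0.51 with the intestine percentage, 0.43 with male carcass, 0.36 with muscle, 0.07 with testis and -0.14 with female carcass. Both sides of these correlations contain the embryo or ovary value, and they are across genes.

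**Figure D5:**
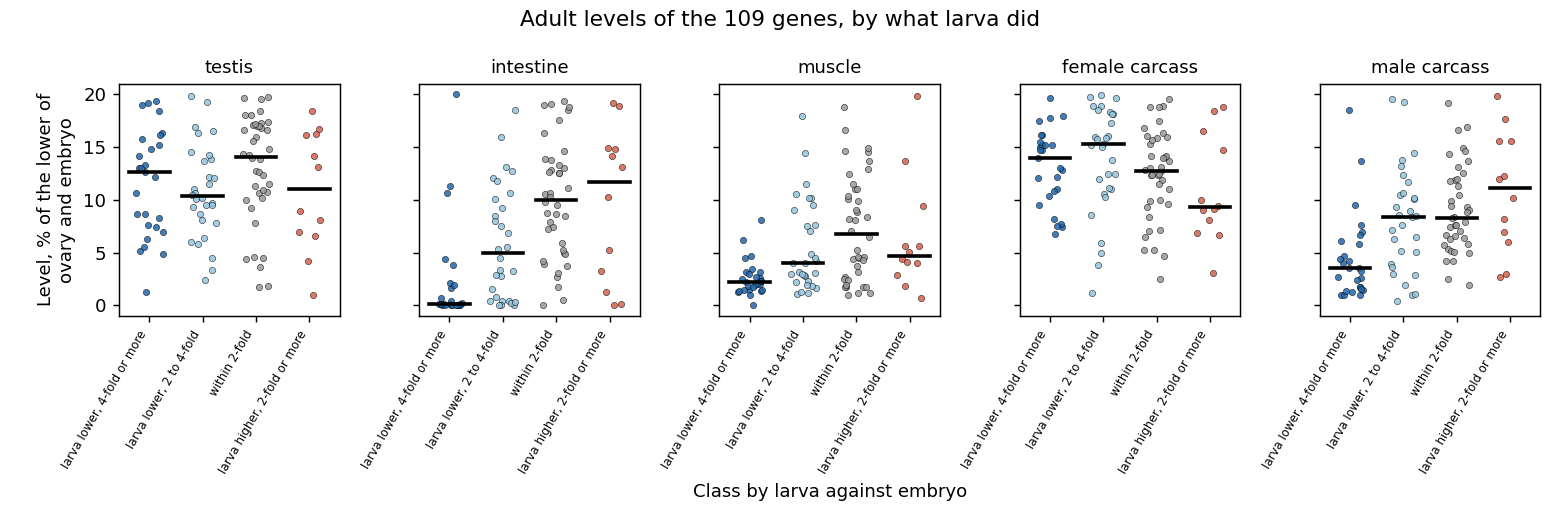
Level of each of the 109 genes in the 5 low adult columns (panels), as a percentage of the lower of ovary and embryo (vertical axis), in 4 classes by larva against embryo (horizontal axis), with a black line at the median. In intestine the 27 genes lower in larva by 4-fold or more lie mostly near 0 (median 0.139%). The 40 genes within 2-fold have a median of 10.0% there, with the 30 genes lower by 2 to 4-fold at 4.91% and the 12 higher genes at 11.7%. Class medians range from 10.3% to 14.1% in testis and from 9.27% to 15.3% in female carcass.

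The most abundant genes of the group were the most often lower in larva. Of the 37 most abundant genes, with a mean of ovary and embryo of 55.6 RPKM or more, 15 were lower in larva by 4-fold or more and 7 were within 2-fold, with a median difference of -1.60. The embryo value enters both the abundance and the difference, which tilts such a split. Of the 36 genes with a mean from 33.15 to 54.25 RPKM, 4 were lower and 18 were within 2-fold (median -0.83). Of the 36 with a mean from 21.45 to 32.2 RPKM, 8 were lower and 15 were within 2-fold (median -0.43). Spearman's rho across the 109 genes was 0.31 between larva and embryo, against 0.53 in the other 2361 ovary and embryo genes. Whether embryo or ovary was the higher made less difference to this count. Of the 61 genes with embryo above ovary 14 were lower in larva, and of the other 48 genes 13 were. The median differences were -1.09 and -0.59, and the embryo value enters this split too. By leading adult column, 14 of the 44 genes led by female carcass were lower in larva by 4-fold or more, as were 10 of the 43 led by testis, 2 of the 6 led by male carcass, 1 of the 12 led by intestine and 0 of the 4 led by muscle. The splits by abundance, by embryo or ovary and by leading column have no wider gene set beside them and only describe the group.

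Genes led by ovary or larva also had values in the other of these columns. For 33 ovary-led genes, those at 500 RPKM or more in ovary and no higher than 20% of their ovary value elsewhere, larva stood at a median of 2.37% of ovary, and for 16 larva-led genes, ovary stood at a median of 8.73% of larva. For 10 embryo-led genes larva stood at a median of 1.72% of embryo, and for the larva-led genes embryo stood at 2.25% of larva. By definition led genes are no higher than 20% elsewhere, so these percentages are limited in advance. The 27 genes lower in larva stood there at 2.99% to 35.1% of their ovary value (median 7.22%), and no gene of the 109 was at or under 2.37%. Set against embryo, the larva quartiles of the embryo-led genes were 1.04% and 3.97%. In that range lay ASG10498 at 2.32%, ASG11413 at 3.48% and ASG13469, named after its values were seen, at 3.68%. The remaining genes of the 109 stood higher. What the larva values come from was not tested, and nothing about it is read from these percentages or from the subtractions that follow. After 8.73% of the larva value was taken from ovary, 103 of the 109 genes were still at 20 RPKM or more there. With the median percentages of larva-led and testis-led genes taken from ovary, and those of ovary-led and testis-led genes from larva, 80 of the 109 met the full rule. Of the 109 themselves, 28 were then lower in larva by 4-fold or more, and 27 as deposited.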

How the data were processed

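The deposited table holds RPKM values with 1 decimal for 15446 genes in 8 columns. Per the submitters' processing notes, the authors used TopHat and Cufflinks. The versions, genome build, annotation and the way the 3 embryo libraries became 1 column are not given in the sources used. Columns were assigned to samples by title, and 0 columns were left unassigned. The group and the lists were chosen with earlier results of these data known.

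From the deposited values, Python 3.11.15 with pandas 2.3.3 and scipy 1.17.1 counted genes by the stated limits. Differences are of log2(RPKM + 1), which understates changes of low genes, and no test was possible with 1 library per tissue. The counting was tested on simulated data. Genes are named by a fixed rule, the 2 most extreme in each direction for larva minus embryo and for embryo over ovary, the 2 most abundant, the 2 with the highest testis percentage, and the 2 nearest each side of the factor of 5. Planned gene lists could not be matched to identifiers. Alternatives were other limits, pseudocounts of 0.1 and 5 RPKM, 3 column scalings, and a subtraction chosen after seeing the data.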

Additional observations from a re-analysis of the deposited data

How the results depend on the processing

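No paired analysis was possible because each stage or tissue has 1 column. The number of genes in the group, 109 as reported, was 48 at a minimum of 40 RPKM, 394 at a factor of 3, 9 at a factor of 10, 245 without the testis condition, 214 without the female carcass condition, 246 with equal sums, 3 with the upper quartile and 1 with the median of ratios. The 27 genes lower in larva were 57 at a log2 threshold of -1, 17 at -3, 15 among the genes at 40 RPKM or more and 1 among those at least 10 times each adult column. The 82 genes not lower by 4-fold or more, of which 30 were lower by 2 to 4-fold, were then 52 at a threshold of -1. They were 33 at 40 RPKM and 8 at the factor of 10. These last counts come from fewer genes. The median larva difference of -1.05 was -0.59 with the upper quartile, -0.47 with the median of ratios, -0.74 against ovary and -0.70 against the lower of ovary and embryo. The 46 genes with larva at least 5 times each low adult column were 17 with the upper quartile, 9 with the median of ratios and 19 at a factor of 10. With the 109 genes held fixed, the share lower in larva was 19.3%, against 14.0% of embryo genes, with the upper quartile and 19.3% against 13.0% with the median of ratios. Of the genes that met the rule on those scales, 1 of 3 and 0 of 1 were lower. Chosen anew with equal sums, the group had a median of -0.60 and 22.0% lower in larva, and at a factor of 3 a median of -0.77 and 20.8% lower. Other alternatives moved counts by less than 1.5 times. With unknown depth and no replicates, no interval can be given.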
